A study of Triticum aestivum with 54 samples.

Results

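The 50 probe sets described here gave far more signal in Aegilops longissima than in Triticum urartu, and had the highest scores for a level in the synthetic allotetraploid wheat AT2 that lay below that of the parental RNA mixture. They were chosen from 61115 probe sets of the Affymetrix GeneChip Wheat Genome Array by deposited values alone. To qualify, the mean of 3 arrays of Ae. longissima had to lie 3 or more log2 units above that of T. urartu in both tissues, as it did in 221 probe sets. The score was the mean over leaf and young inflorescence of the level in Mix minus the level of the highest of the 4 AT2 generations, and the 50 highest scores were kept. The levels of AT2, Mix, Ae. longissima and T. urartu were therefore used by the choice, and they are given below as a description with no test.

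AT2 (genome SlSlAA) came from F1 hybrids between Ae. longissima TL05 as the female and T. urartu TMU06 as the male parent, doubled with colchicine and selfed, and generations S5, S6, S7 and S8 were measured. Mix was parental RNA combined 1:1 by quantity, an in vitro "hybrid". The diploid parents were Ae. longissima TL05 (SlSl) and T. urartu TMU06 (AA). The natural tetraploids (BBAA) were TTR13, an accession of domesticated T. turgidum ssp. durum, and TD, an accession of wild T. turgidum ssp. dicoccoides. Each of these 9 genotypes had 3 arrays of young inflorescence at booting and 3 arrays of leaf (the second leaf, from seedlings aged 3 weeks), 54 arrays in all, with RNA from pooled plants. No plant received a treatment, and each polyploid genotype was 1 line. Separate pools behind the 3 mixtures of a tissue are not stated in the sources used here, and p-values below measure only the spread between arrays of a genotype. The labels name Triticum aestivum as the organism and AT2 as the genotype of every array, so genotypes were read from the codes in the titles.

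An allopolyploid holds the genomes of diverged species, and genes in the same ancestral position of these genomes are called homeologs. Where both parental copies keep their activity, the total level of a gene in the polyploid lies near the mean of the parents, which is called additive expression, and the RNA mixture serves as a measured stand-in for that mean. A transcript made by only 1 of the parents is diluted by the RNA of the other in such a mixture. The wheat array was designed on hexaploid wheat sequences and reports the summed signal of all copies that its probes bind, so it does not tell subgenomes apart, and a copy whose sequence differs from the probes gives less signal at the same transcript level. The level is a log2 intensity after RMA normalization, and levels are compared here within a probe set, not between probe sets.

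All arrays were alike in scale, with array medians from 4.69 to 4.92 and correlations within a genotype and tissue from 0.982 to 0.996 over all probe sets. Among the leaf genes checked, all 6 probe sets of PRK, PsbP, PsbO and petC, which act in photosynthesis, were lower in young inflorescence than in leaf (differences from -7.17 to -0.21 in the mean over genotypes). The difference of -0.21 came from a petC probe set with means of 3.11 and 3.32, below the array medians. It was higher in young inflorescence in 2 genotypes, so it says little about the tissues. Of the 24 probe sets checked for young inflorescence, 18 were higher there. Of the 18 probe sets of the histone genes wcH2A and wcH2B, 17 were higher. The remaining histone probe set, of wcH2A, had the lowest difference of the 24 (-1.08). The 4 probe sets of raftin, an anther gene, were not higher either (differences from -0.60 to -0.14). Those of raftin1a had means from 2.66 to 2.99, below the array medians, so they say little about the tissues.

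The label under which these probe sets were grouped, Ae. longissima genes lost in AT2, held for few of them. The score ran from 5.92 down to -0.30 with a median of -0.12. A score of at least 1 was reached by 8 members, 10 lay between 0 and 1, and 32 scored below 0. The eighth member had a score of 1.61 and the ninth 0.89. At the limit of 50 there was no gap, since the last members inside, Ta.390.1.S1_at and Ta.11872.1.S1_at, scored -0.30, and the first outside, TaAffx.29938.1.S1_at and Ta.14405.1.S1_s_at, scored -0.31. Among the 221 probe sets that met the parental difference, only these 8 reached a score of 1. The same score among the 163 probe sets with the opposite parental difference (T. urartu above Ae. longissima by at least 3 in both tissues) reached 2.08 at most and was at least 1 in 3.

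**Figure D1:**
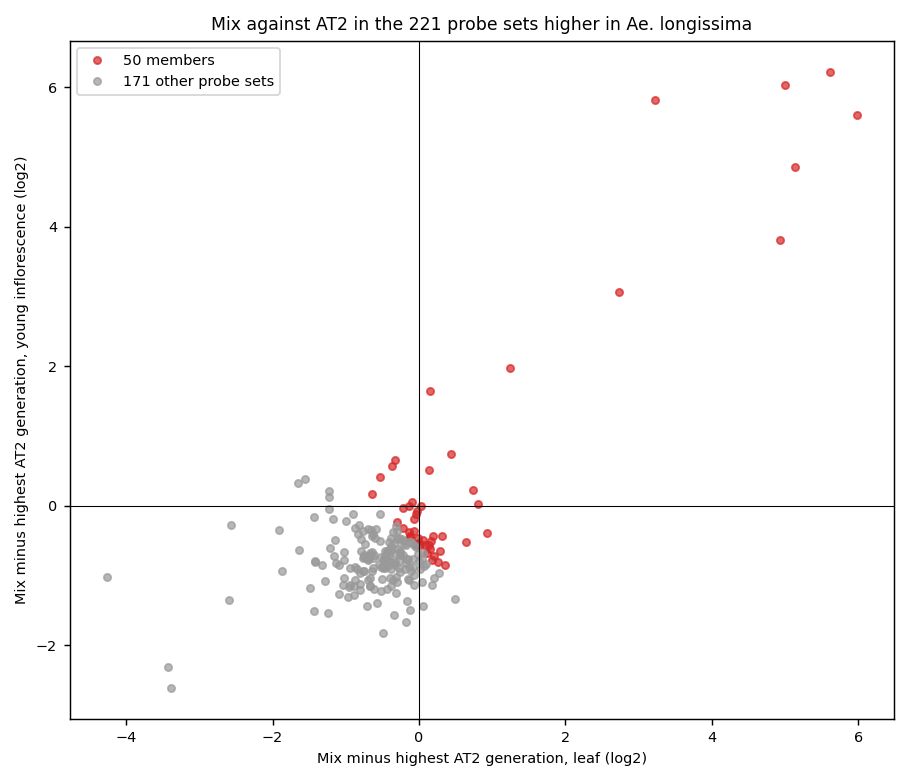
Level in Mix minus level in the highest AT2 generation (log2, means of 3 arrays), leaf on the horizontal and young inflorescence on the vertical axis, for the 50 members (red) and the 171 other probe sets with the same parental difference (grey). The first 8 members lie toward the upper right, with a score of 1.61 or more. The ninth, Ta.27765.3.S1_x_at, lies above the grey points at 0.15 in leaf and 1.64 in young inflorescence, and most of the others adjoin the grey points.

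By generation means, Mix exceeded every AT2 generation in 31 of the 50 members in leaf and in 19 in young inflorescence, in 14 of them in both tissues and in another 14 in neither. All 12 AT2 arrays lay below all 3 Mix arrays in 16 members in leaf and in 14 in young inflorescence. For leaf 4.19% of all analysed probe sets had such separate arrays, and for young inflorescence 8.93%. Since the rule used this contrast, nothing is read from these counts. Over the members, the median of the AT2 mean minus Mix was -0.35 for leaf and 0.13 for young inflorescence. Over the 171 other probe sets it was 0.27 for leaf and 0.66 for young inflorescence, and over all probe sets -0.04 for leaf and 0.02 for young inflorescence. In the 32 members that scored below 0 the AT2 mean minus Mix ran from -0.84 to 0.11 in leaf and from -0.85 to 0.72 in young inflorescence. The members are therefore called by the rule here, as Ae. longissima-high probe sets with the highest scores, and not as lost genes.

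**Figure D2:**
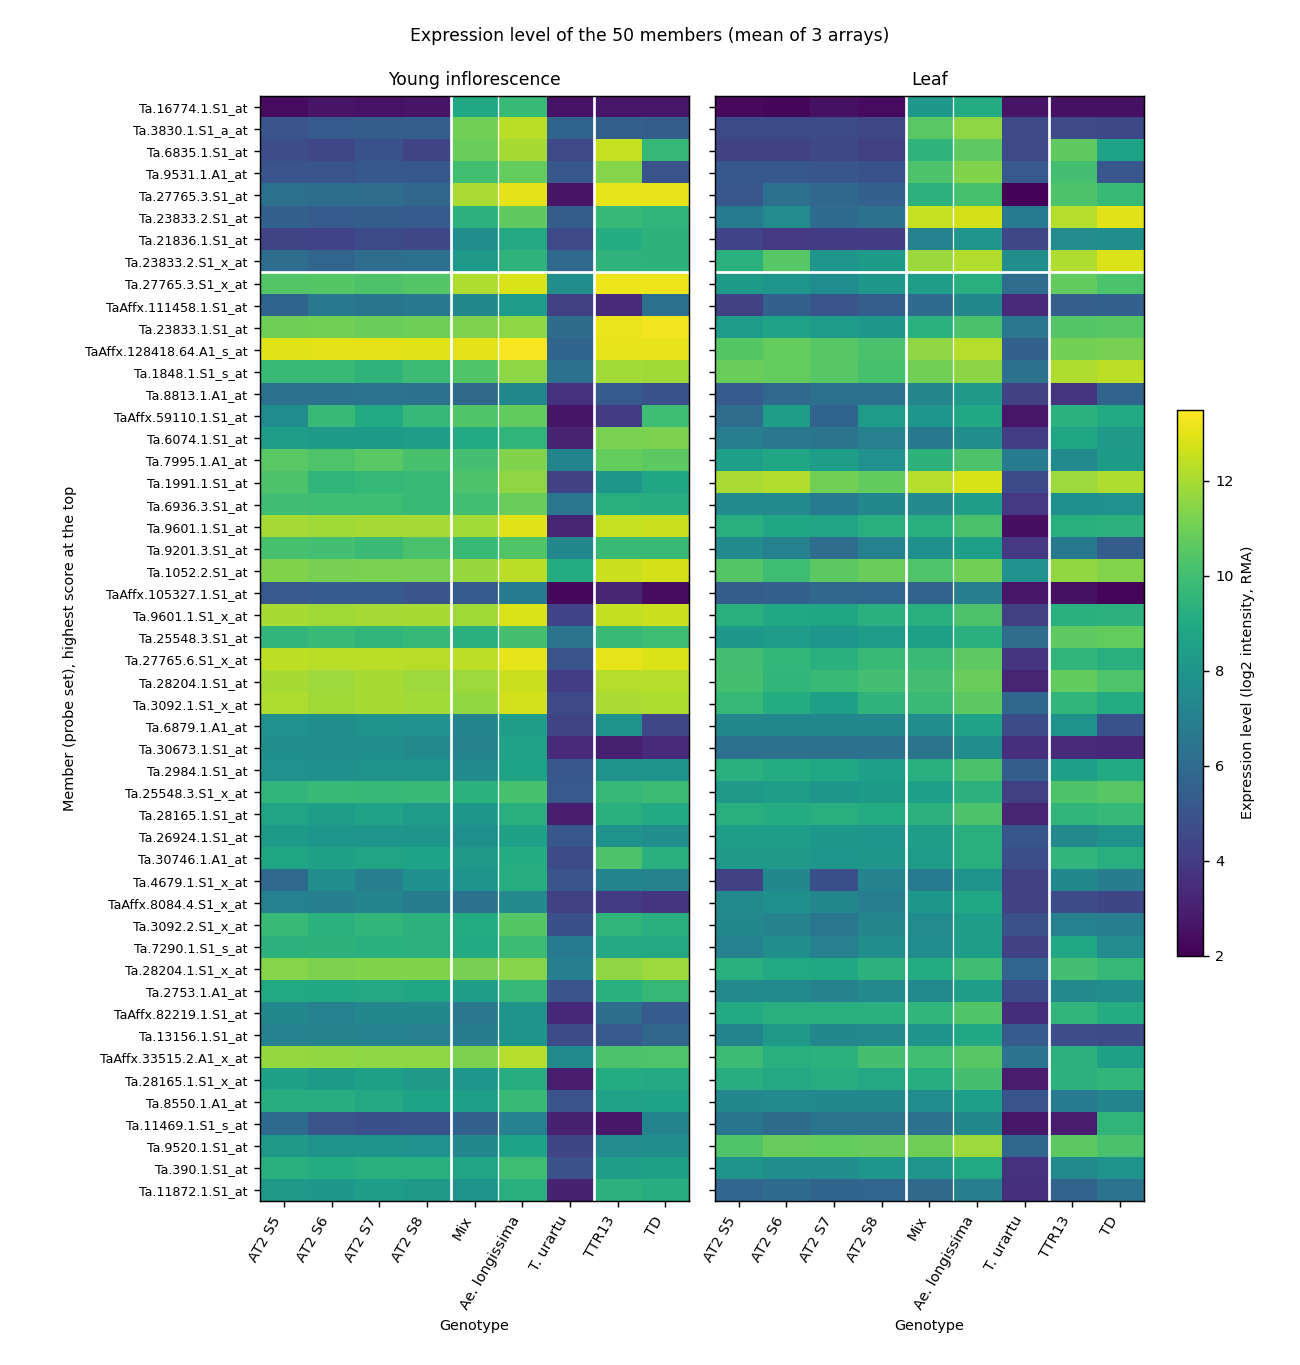
Expression level (log2 intensity, colour) of the 50 members in rows, highest score at the top, by genotype in columns, as means of 3 arrays in young inflorescence and leaf. Above the horizontal white line are the 8 members with a score of 1.61 or more, in which each AT2 generation was at most 1 above T. urartu, except in Ta.27765.3.S1_at in both tissues and Ta.23833.2.S1_x_at in leaf.

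Ta.16774.1.S1_at had the highest score, 5.92. In leaf its level ranged from 2.11 to 2.55 over the 12 AT2 arrays, against 7.99, 8.26 and 8.18 in Mix, 9.26, 9.05 and 8.89 in Ae. longissima and 3.00, 2.54 and 2.25 in T. urartu. In young inflorescence the 12 AT2 arrays ranged from 2.18 to 2.79, against 9.30, 8.68 and 8.52 in Mix, 9.80, 10.01 and 9.62 in Ae. longissima and 2.49, 2.51 and 2.71 in T. urartu. AT2 thus sat at the T. urartu level in each generation and both tissues, and no AT2 array came near a Mix array. The natural tetraploids were at the same low level, from 2.37 to 2.77 over the 6 arrays of TTR13 and from 2.33 to 2.74 over the 6 arrays of TD. All of these values were below the array medians, where a weak transcript and background cannot be told apart without detection calls, which were not used here.

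Ta.3830.1.S1_a_at, with a score of 5.79, had the same pattern. Its AT2 arrays ranged from 3.89 to 5.03 in leaf, against 10.44, 10.62 and 10.66 in Mix and 4.44, 4.41 and 4.84 in T. urartu. In young inflorescence they ranged from 4.90 to 5.68, against 11.04, 11.18 and 11.00 in Mix and 5.68, 5.71 and 5.70 in T. urartu. Ae. longissima reached 12.39, 12.29 and 12.19 in young inflorescence, with 11.57, 11.59 and 11.49 in leaf. In TTR13 and TD the means were 4.52 ± 0.25 and 4.51 ± 0.19 in leaf (SD, n = 3 each), and 5.54 ± 0.16 and 5.37 ± 0.05 in young inflorescence. For both of these members every tetraploid measured was thus near the T. urartu level.

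Ta.6835.1.S1_at (score 5.51) was low in AT2 but not in the natural tetraploids. In leaf its AT2 arrays ranged from 4.11 to 4.74, against 9.29, 9.54 and 9.61 in Mix, 10.54, 10.68 and 10.69 in Ae. longissima and 4.51, 4.60 and 4.48 in T. urartu. In young inflorescence they ranged from 3.96 to 5.00, against 11.00, 10.89 and 10.84 in Mix. TTR13 had 12.46, 12.46 and 12.59 in young inflorescence, with 10.64, 10.71 and 10.77 in leaf, the level of Ae. longissima or above, and TD had 9.63, 9.68 and 9.65 in young inflorescence, with 8.70, 8.58 and 8.66 in leaf. TTR13 and TD did not overlap in either tissue.

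Ta.9531.1.A1_at (score 5.00) separated the natural tetraploids. In leaf AT2 ranged from 4.66 to 5.23, against 10.66, 10.11 and 10.15 in Mix. In young inflorescence no AT2 array exceeded 5.27, against 10.49, 9.89 and 9.71 in Mix. TTR13 had 11.34, 11.43 and 11.43 in young inflorescence, with 10.07, 10.10 and 10.01 in leaf, whereas TD had 5.00, 5.14 and 4.81 in young inflorescence, with 4.99, 5.34 and 4.96 in leaf. TD, like AT2, was at the level of T. urartu, which had 5.06, 5.06 and 5.21 in young inflorescence, with 5.07, 5.24 and 5.28 in leaf.

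**Figure D3:**
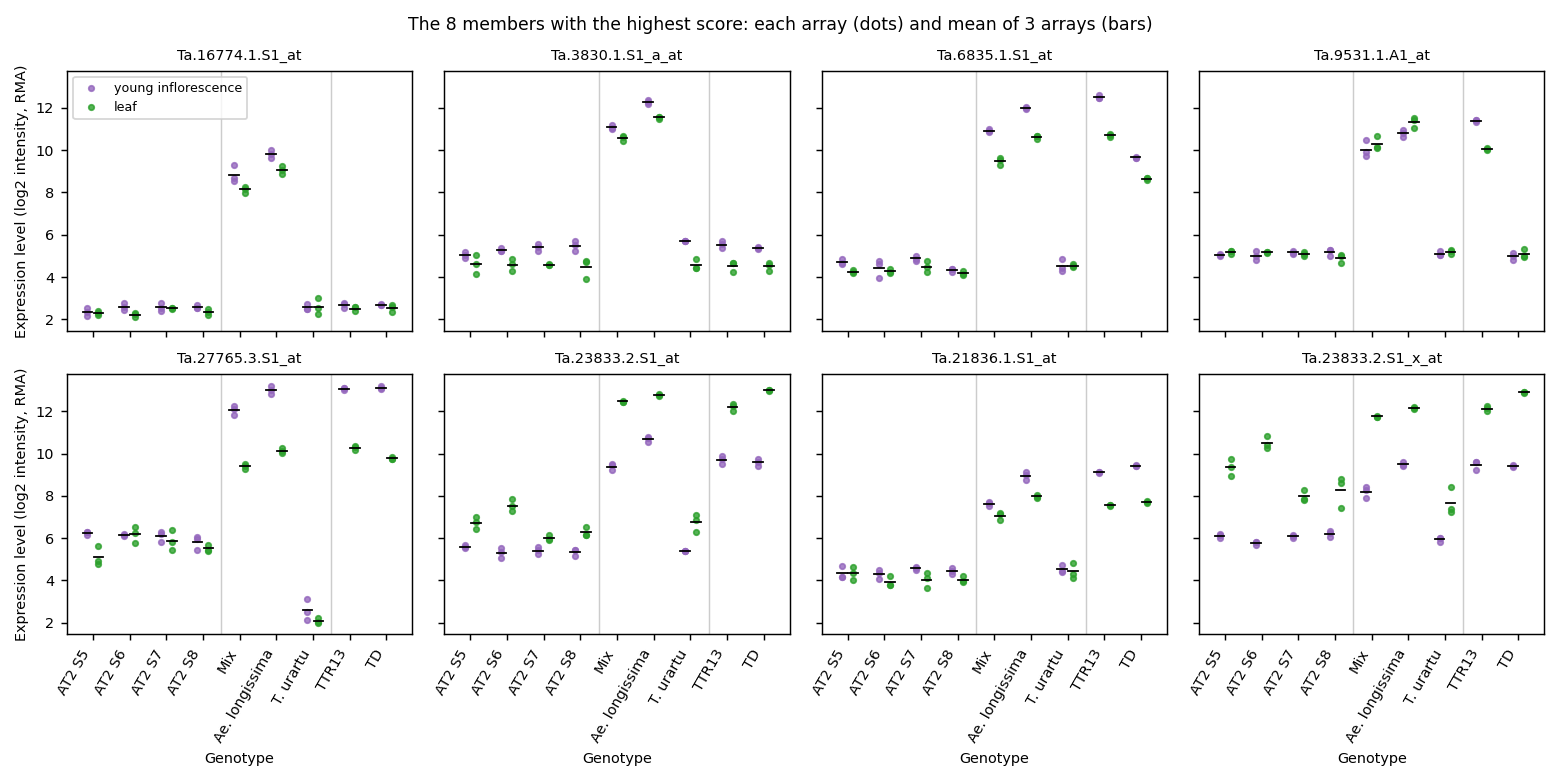
Expression level (log2 intensity) of the 8 members with the highest score in each array (dots) and as the mean of 3 arrays (bars), by genotype, in young inflorescence (purple) and leaf (green). AT2 arrays lie below all Mix arrays of the same tissue in each panel, and TTR13 and TD range from the T. urartu level in Ta.16774.1.S1_at to the Ae. longissima level in Ta.27765.3.S1_at.

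Ta.21836.1.S1_at (score 2.90) had a smaller parental difference and the same order. In leaf AT2 ranged from 3.65 to 4.62, against 6.87, 7.14 and 7.18 in Mix, 7.92, 7.97 and 8.04 in Ae. longissima and 4.33, 4.83 and 4.12 in T. urartu. In young inflorescence AT2 ranged from 4.08 to 4.69, against 7.52, 7.67 and 7.71 in Mix. Both natural tetraploids were near the Ae. longissima level, with 7.54, 7.59 and 7.56 in TTR13 and 7.68, 7.76 and 7.70 in TD in leaf, and 9.09, 9.15 and 9.14 in TTR13 and 9.46, 9.42 and 9.42 in TD in young inflorescence.

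Of the 50 members 16 shared the number in their name with another member, in 7 groups, so that the 50 members stood for 41 numbers. Such a number may group transcripts of similar sequence in the array design, which was not checked here. Members of a group may bind the same or nearly identical transcripts, and they are not independent. The 2 groups of 3 members, Ta.27765 and Ta.23833, held 3 of the 8 members with the highest scores and also members near the mixture.

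Ta.27765.3.S1_at (score 4.52) was the member of the first 8 in which AT2 stayed more than 1 above T. urartu in both tissues. In leaf AT2 had means of 5.10 ± 0.46 in S5, 6.19 ± 0.37 in S6, 5.88 ± 0.46 in S7 and 5.52 ± 0.17 in S8, against 9.41 ± 0.13 in Mix, 10.15 ± 0.12 in Ae. longissima and 2.10 ± 0.13 in T. urartu (SD, n = 3 each). In young inflorescence AT2 ranged from 5.44 to 6.30 over 12 arrays, against 12.24, 11.84 and 12.10 in Mix and 3.12, 2.15 and 2.51 in T. urartu. Its companion Ta.27765.3.S1_x_at, whose suffix marks probes that may bind other transcripts, had AT2 at 10.22 to 10.56 in young inflorescence, against 12.40, 12.08 and 11.90 in Mix, but in leaf AT2 ranged from 7.55 to 8.37, close below the 8.41, 8.46 and 8.43 of Mix. In Ta.27765.6.S1_x_at the AT2 generation means lay from 9.29 to 10.08 in leaf, against 9.86 in Mix, and from 12.26 to 12.38 in young inflorescence, against 12.35 in Mix.

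All 3 members numbered Ta.27765 are paired in the platform annotation with LOC606340, a gene without a name in the tables used, as are 4 of the other Ta.27765 probe sets. Only 6 of the 50 members were paired with a gene. The others were Ta.1848.1.S1_s_at with LOC100037609, Ta.1991.1.S1_at with LOC543250 and Ta.9520.1.S1_at with LOC543186, none of which has a name in those tables either. The function of the members is therefore not described.

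In the group Ta.23833 the low AT2 level depended on the tissue and on the probe set. Ta.23833.2.S1_at (score 4.37) had 7.02, 6.43 and 6.75 in S5, 7.83, 7.50 and 7.29 in S6, 5.95, 5.90 and 6.14 in S7 and 6.16, 6.15 and 6.52 in S8 in leaf, against 12.50, 12.46 and 12.46 in Mix and 6.30, 7.09 and 6.84 in T. urartu. In young inflorescence its means were 5.58, 5.30, 5.41 and 5.36 in S5 to S8, against 9.39 in Mix and 5.40 in T. urartu. Ta.23833.2.S1_x_at (score 1.61) varied more between generations in leaf, with 9.73, 8.95 and 9.36 in S5, 10.83, 10.28 and 10.41 in S6, 7.81, 7.86 and 8.26 in S7 and 7.45, 8.79 and 8.60 in S8, against 11.75, 11.75 and 11.77 in Mix and 7.37, 7.22 and 8.41 in T. urartu. S6 was the highest generation for both probe sets in leaf and its arrays did not overlap with those of S7 and S8. In young inflorescence the x_at probe set had AT2 arrays from 5.69 to 6.33, against 7.90, 8.26 and 8.43 in Mix. Ta.23833.1.S1_at scored only 0.49, with AT2 generation means from 8.12 to 8.62 in leaf, against 9.36 in Mix, and from 10.93 to 11.05 in young inflorescence, against 11.28 in Mix.

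In the other 5 groups, each of 2 members (Ta.9601, Ta.25548, Ta.28204, Ta.3092 and Ta.28165), the AT2 mean minus Mix ran from -0.66 to 0.04 in leaf and from 0.04 to 0.44 in young inflorescence. TaAffx.111458.1.S1_at, the tenth member, had AT2 generation means of 4.29, 5.58, 4.99 and 5.48 in S5 to S8 in leaf, against 6.02 in Mix, and 5.69, 6.63, 6.47 and 6.64 in young inflorescence, against 7.39 in Mix. Its S5 arrays were all below Mix in both tissues, at 5.69, 5.71 and 5.66 in young inflorescence, with 3.38, 4.79 and 4.71 in leaf.

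In most members the 4 generation means lay less than 1 apart in each tissue. The median over members of the highest minus the lowest generation mean was 0.54 in leaf and 0.25 in young inflorescence, whereas the median SD between the 3 arrays of a generation lay between 0.12 and 0.25 in leaf and between 0.08 and 0.14 in young inflorescence. A range of at least 1 was seen in 9 members in leaf and 3 in young inflorescence, and of at least 2 in 3 members in leaf and 1 in young inflorescence. A range of means and an SD of single arrays are unlike measures, and the generations were not tested against each other. No share over all probe sets stands beside these counts, so nothing particular to the members is read from them. In both tissues, 2 of the widest ranges belonged to Ta.4679.1.S1_x_at (3.06 in leaf and 1.85 in young inflorescence) and TaAffx.59110.1.S1_at (2.67 in leaf and 2.16 in young inflorescence).

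TaAffx.59110.1.S1_at had 5.47, 6.21 and 6.66 in S5, 8.31, 8.78 and 8.04 in S6, 7.39, 3.27 and 6.46 in S7 and 7.89, 8.65 and 8.40 in S8 in leaf, against 7.80, 8.25 and 8.10 in Mix. Ta.4679.1.S1_x_at had 3.86, 4.02 and 4.99 in S5, 6.92, 7.73 and 7.40 in S6, 6.10, 2.84 and 5.53 in S7 and 6.69, 7.34 and 7.39 in S8, against 6.57, 6.81 and 6.73 in Mix. In leaf S6 and S8 were near the Mix level in both, and all arrays of S5 and S7 lay below it. Replicate 2 of S7 was the lowest AT2 leaf array in both, far below the other 2 arrays of that generation. In young inflorescence TaAffx.59110.1.S1_at had 7.61, 7.60 and 7.52 in S5, and 8.90 to 10.15 over the other generations, against 10.65, 10.27 and 10.27 in Mix, and Ta.4679.1.S1_x_at was likewise lowest in S5, at 6.35, 5.54 and 5.84, against 8.22, 7.84 and 7.72 in Mix. The generation and the plants pooled for it cannot be told apart.

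**Figure D4:**
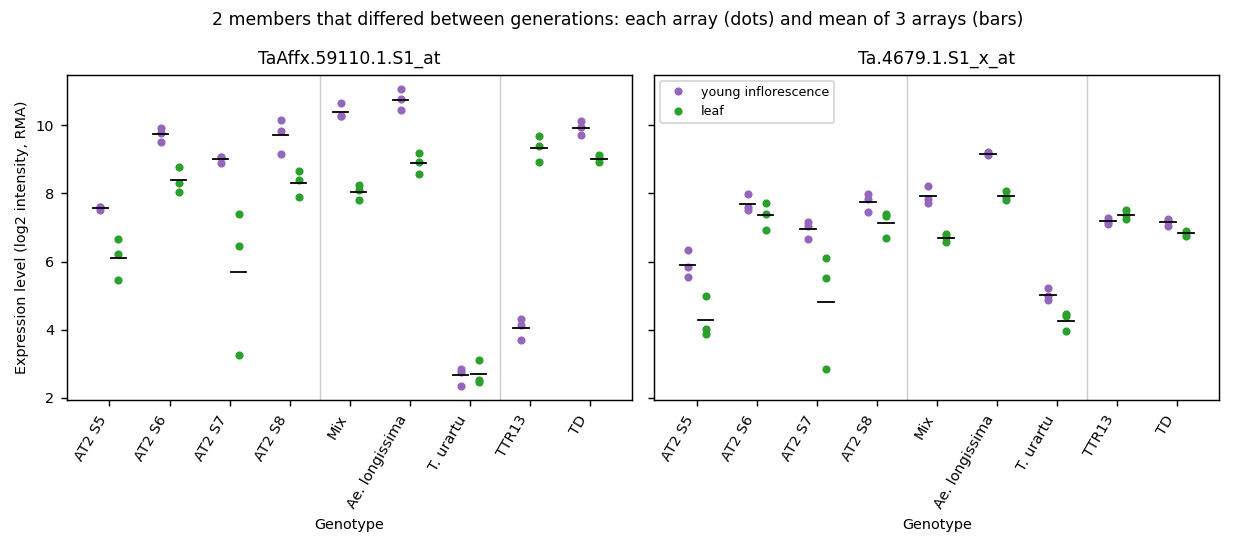
Expression level (log2 intensity) of TaAffx.59110.1.S1_at and Ta.4679.1.S1_x_at in each array (dots) and as the mean of 3 arrays (bars), by genotype, in young inflorescence (purple) and leaf (green). In leaf S5 and S7 lie below S6 and S8 for both probe sets, and in S7 a single array, at 3.27 and 2.84, pulls the mean down.

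The RNA mixture itself behaved alike over the members. Mix lay below Ae. longissima by a median of 0.89 in leaf, with differences from -1.30 to -0.29, and by 1.08 in young inflorescence, with differences from -1.54 to -0.24. The parental difference, Ae. longissima minus T. urartu, had a median of 4.56 in leaf and 4.91 in young inflorescence and a maximum of 8.22 in leaf and 10.42 in young inflorescence. T. urartu had the widest spread between arrays for these probe sets, with a median SD of 0.35 in leaf and 0.31 in young inflorescence. The other genotypes had values between 0.06 and 0.25 in leaf and between 0.07 and 0.14 in young inflorescence. The rule chose probe sets that were low in T. urartu, so spread at a low level is set beside spread at mostly higher levels. It is therefore not read as a trait of the genotype.

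The levels in TTR13 and TD were not used to choose the members. TTR13 was nearer to Ae. longissima than to T. urartu in 41 of the 50 members in leaf and 40 in young inflorescence, and TD in 39 in each tissue. For TTR13 this was 82% of the members in leaf, against 52.1% of the 171 other probe sets, and 80% in young inflorescence, against 57.3%. For TD it was 78% in leaf, against 49.7%, and 78% in young inflorescence, against 54.4%. In 35 members both natural tetraploids were nearer to Ae. longissima in both tissues, and these included 5 of the first 8 members. TTR13 and TD were both at most 1 above T. urartu in both tissues in 5 members (Ta.16774.1.S1_at, Ta.3830.1.S1_a_at, TaAffx.105327.1.S1_at, Ta.30673.1.S1_at and TaAffx.8084.4.S1_x_at), TTR13 alone met this in 2 (Ta.13156.1.S1_at and Ta.11469.1.S1_s_at), and TD alone in 2 (Ta.9531.1.A1_at and Ta.6879.1.A1_at). These counts are a description, since no test of the natural tetraploids against the parents was made.

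TTR13 was compared with TD to ask which members differed between the durum and the dicoccoides accession. In leaf 6 of the 50 members were higher and 5 lower in TTR13 (limma with Benjamini-Yekutieli adjusted p under 0.05, fitted over all analysed probe sets). This was 22% of the members, against 21.9% of the 25940 analysed probe sets (9.41% higher and 12.5% lower) and 23.4% of the 171 other probe sets. In young inflorescence 6 were again higher and 5 lower, 22% of the members, against 33.3% of the 25323 analysed probe sets (22.2% higher and 11.1% lower) and 29% of the 169 others that were analysed. At an unadjusted p under 0.05 there were 20 members in leaf and 18 in young inflorescence. The share in leaf was that of the array, and neither count sets the members apart. In 5 members the difference passed in both tissues, each with the same sign, in 6 only the leaf test and in 6 only the young inflorescence test passed, and 33 passed in neither.

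In 3 members the level was higher in TTR13 by more than 2 in both tissues. Ta.9531.1.A1_at, whose arrays are given above, was higher in TTR13 by 4.96 ± 0.14 in leaf (SE, limma adjusted p = 6.46e-17) and by 6.42 ± 0.14 in young inflorescence (adjusted p = 5.83e-20). Ta.6879.1.A1_at had 7.31, 8.16 and 8.22 in TTR13, against 4.65, 4.68 and 5.37 in TD in leaf, and 8.04, 7.83 and 7.88 in TTR13, against 4.28, 4.78 and 4.22 in TD in young inflorescence. The difference was 3.00 ± 0.20 in leaf (limma adjusted p = 2.99e-10) and 3.49 ± 0.13 in young inflorescence (adjusted p = 8.22e-16). In each tissue 2 of the 3 TD arrays lay below the array medians, so the sizes of both differences depend on the background. TTR13 was near the AT2 level (means from 7.28 to 7.37 in leaf) and TD near the 4.65 of T. urartu in leaf. Ta.6835.1.S1_at was higher in TTR13 by 2.06 ± 0.11 in leaf (limma adjusted p = 4.05e-12) and 2.85 ± 0.15 in young inflorescence (adjusted p = 5.79e-13).

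Ta.11469.1.S1_s_at had the most negative measured difference in leaf. It had 2.65, 3.15 and 2.77 in TTR13, against 9.45, 9.62 and 9.46 in TD in leaf, a difference of -6.66 ± 0.17 (limma adjusted p = 7.85e-18). In young inflorescence it had 2.60, 2.89 and 2.71 in TTR13, against a mean of 7.19 ± 0.17 in TD (SD, n = 3), a difference of -4.46 ± 0.18 (adjusted p = 4.16e-15). TTR13 was at the T. urartu level of 2.47, 3.05 and 2.71 in leaf, and TD lay above the 7.53, 7.22 and 7.28 of Ae. longissima in leaf. All 6 TTR13 arrays were below the array medians, where the level of a weak transcript and background cannot be told apart, so the sizes of both differences depend on the background. AT2 lay between TTR13 and TD here, from 5.83 to 6.70 in leaf and from 4.61 to 6.18 in young inflorescence, near Mix, which had 6.50, 6.27 and 6.25 in leaf.

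TaAffx.59110.1.S1_at differed between the accessions in young inflorescence, with 4.32, 3.69 and 4.13 in TTR13, against 9.72, 10.12 and 9.94 in TD, a difference of -5.88 ± 0.21 (limma adjusted p = 2.36e-16). In leaf the same probe set had 9.69, 8.93 and 9.38 in TTR13, against 8.91, 9.03 and 9.11 in TD, and the arrays overlapped. TaAffx.111458.1.S1_at was alike, with 3.46, 3.34 and 3.37 in TTR13, against 6.25, 6.25 and 6.20 in TD in young inflorescence (difference -2.84 ± 0.26, limma adjusted p = 2.71e-08), and 5.74, 5.18 and 5.54 in TTR13, against 5.64, 5.60 and 5.47 in TD in leaf. In both, TTR13 was low in young inflorescence, with all 3 arrays below the array medians, and at the TD level in leaf.

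Ta.8813.1.A1_at was the reverse case, with 3.45, 3.71 and 4.02 in TTR13, against 5.71, 5.43 and 5.88 in TD in leaf (difference -1.94 ± 0.17, limma adjusted p = 3.34e-08), and 5.27, 5.42 and 5.27 in TTR13, against 5.05, 4.65 and 4.98 in TD in young inflorescence, where the difference did not pass. The 3 TTR13 leaf arrays of this probe set were below the array medians. Ta.9201.3.S1_at was higher in TTR13 by 1.26 ± 0.30 in leaf, with 6.86, 6.46 and 6.56 in TTR13, against 5.16, 5.55 and 5.40 in TD (limma adjusted p = 0.0193). That call was lost without TTR13 replicate 1 or 3 or without TD replicate 1 or 3 (adjusted p up to 0.127). The other called differences were below 1 in size. They were higher in TTR13 for TaAffx.82219.1.S1_at in both tissues (0.44 in leaf, 0.83 in young inflorescence), Ta.27765.3.S1_x_at in leaf (0.49), and Ta.30746.1.A1_at (0.97) in young inflorescence. They were lower in TTR13 for Ta.7995.1.A1_at (-0.81), Ta.23833.2.S1_at (-0.79) and Ta.11872.1.S1_at (-0.70) in leaf, and Ta.1991.1.S1_at (-0.73) in young inflorescence. The remaining calls, both in young inflorescence, were TaAffx.105327.1.S1_at (0.79), with 2.97, 3.24 and 3.36 in TTR13 and 2.58, 2.31 and 2.31 in TD, and Ta.30673.1.S1_at (-0.39), with means of 3.01 ± 0.11 in TTR13 and 3.40 ± 0.10 in TD (SD, n = 3 each). All 12 values behind these calls were below the array medians, and both probe sets were analysed only because other genotypes were high, so neither call is read as a difference in expression.

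Several of these smaller calls were lost when 1 array was left out or under another setting. In leaf Ta.27765.3.S1_x_at lost its call without TTR13 replicate 1 or TD replicate 1 or 3 (limma adjusted p up to 0.105), TaAffx.82219.1.S1_at without TTR13 replicate 3 (adjusted p = 0.0719) and Ta.23833.2.S1_at without TTR13 replicate 2 (adjusted p = 0.0773). In young inflorescence Ta.1991.1.S1_at lost it without TTR13 replicate 1 or TD replicate 2 (limma adjusted p up to 0.115), and Ta.30673.1.S1_at without TTR13 replicate 2 or 3 or TD replicate 2 or 3 (adjusted p up to 0.195). In a fit of only the groups compared, Ta.11872.1.S1_at (limma adjusted p = 0.073), Ta.27765.3.S1_x_at (0.0604) and TaAffx.82219.1.S1_at (0.116) lost their calls in leaf, and Ta.1991.1.S1_at (0.194) and Ta.30673.1.S1_at (0.0604) in young inflorescence. Ta.30673.1.S1_at also lost it with no filter (adjusted p = 0.0723), median centring (0.073) and quantile normalization (0.108). Ta.27765.3.S1_x_at, TaAffx.82219.1.S1_at and Ta.30673.1.S1_at did not reach a minimum fold change of 1.5.

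**Figure D5:**
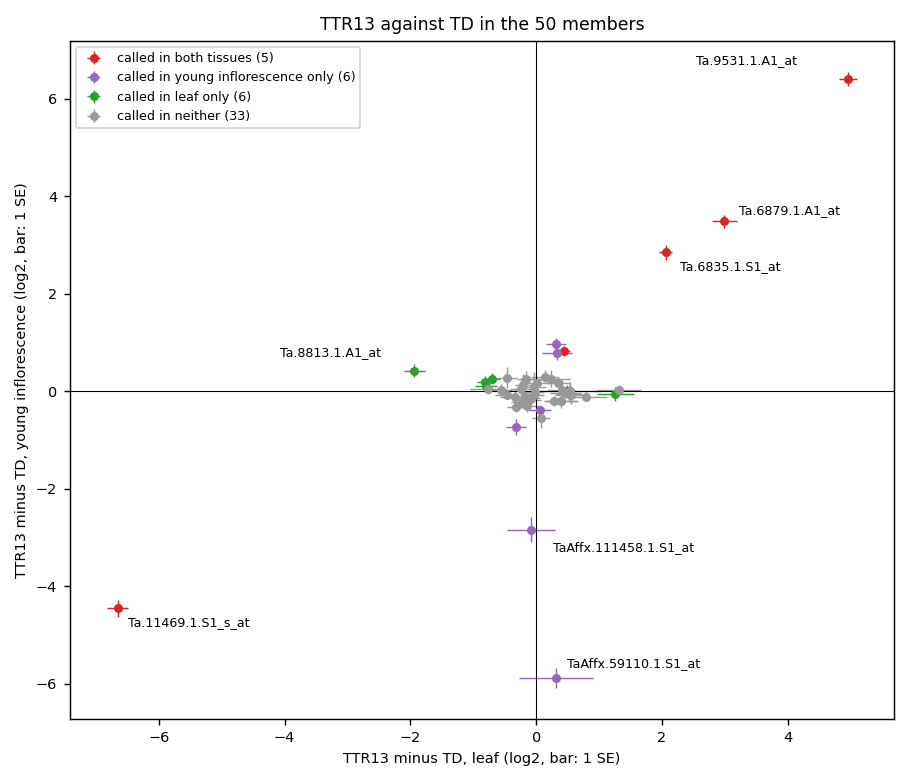
TTR13 minus TD (log2, with 1 SE from limma) in leaf on the horizontal and in young inflorescence on the vertical axis for the 50 members, coloured by the tissue in which the difference was called. 3 members lie far up on the right (Ta.9531.1.A1_at, Ta.6879.1.A1_at and Ta.6835.1.S1_at), and Ta.11469.1.S1_s_at lies far down on the left. The 33 members called in neither tissue lie around the origin. Of these, Ta.7290.1.S1_s_at lies out to the right, with leaf means of 8.85 in TTR13 and 7.53 in TD.

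The difference between TTR13 and TD itself depended on the tissue in 10 members, 20% of the 50, against 27.3% of the 29906 probe sets analysed in either tissue (18.3% positive and 8.99% negative) and 25.1% of the 171 others (limma interaction over all 54 arrays). In 7 members TTR13 minus TD was greater in young inflorescence, and in 3 it was greater in leaf. The widest interactions were -6.19 ± 0.65 for TaAffx.59110.1.S1_at (adjusted p = 2.69e-09), -2.76 ± 0.47 for TaAffx.111458.1.S1_at (adjusted p = 8.28e-05), 2.36 ± 0.22 for Ta.8813.1.A1_at (adjusted p = 1.34e-10) and 2.20 ± 0.25 for Ta.11469.1.S1_s_at (adjusted p = 2.12e-08). The smallest was that of Ta.6835.1.S1_at, 0.79 ± 0.19 (adjusted p = 0.00679). Ta.9201.3.S1_at (-1.31, adjusted p = 0.0187) lost its call without TTR13 leaf replicate 1 or TD leaf replicate 1 (adjusted p of 0.0729 and 0.0773), and Ta.23833.2.S1_at (0.91) with quantile normalization (adjusted p = 0.0567). In the widest 4, TTR13 was below the array medians in at least 1 tissue.

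Young inflorescence was compared with leaf within TTR13 and within TD to see where the members were expressed. In whole tissue a smaller share of cells of a type and less RNA per cell cannot be told apart. In TTR13 28 members were higher and 10 lower in young inflorescence, and in TD 25 were higher and 12 lower. In 1 of the TTR13 calls, that of TaAffx.105327.1.S1_at, all arrays of both tissues were below the array medians. In 4 other TTR13 calls and 1 TD call all arrays of 1 tissue were below them. The sizes of those differences depend on the background. The calls were 76% of the members in TTR13, against 74.3% of the 29906 probe sets analysed (41.9% higher and 32.4% lower), and 74% in TD, against 67.7% (37.9% higher and 29.8% lower). Among the 171 others the share was 56.7% in TTR13 (72 higher and 25 lower) and 56.1% in TD (61 higher and 35 lower). More calls were thus higher than lower in these others too, so that direction is not particular to the members. The median difference over the members was 0.88 in both TTR13 and TD, against 0.09 over the probe sets analysed in each. In 23 members young inflorescence was higher in both accessions, and in 8 it was lower in both. One of the 23 was Ta.3830.1.S1_a_at, whose leaf arrays were all below the array medians in both accessions. In 1 member, Ta.8813.1.A1_at, the signs were opposite, at 1.59 ± 0.16 in TTR13 (limma adjusted p = 2.59e-11) and -0.78 ± 0.16 in TD (adjusted p = 0.000244). All 3 of its TTR13 leaf arrays and 1 of its TD arrays of young inflorescence were below the array medians. Its opposite signs therefore rest partly on levels near the background.

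The widest tissue difference within TTR13 was that of TaAffx.59110.1.S1_at, -5.29 ± 0.46 in young inflorescence relative to leaf (limma adjusted p = 6.66e-13), from the arrays given above. It was followed by Ta.1991.1.S1_at, at -3.73 ± 0.17 in TTR13 (limma adjusted p = 1e-22) and -3.32 ± 0.17 in TD (adjusted p = 7.28e-21), and Ta.11872.1.S1_at, at 3.73 ± 0.12 in TTR13 (limma adjusted p = 2.73e-27) and 2.76 ± 0.12 in TD (adjusted p = 1.46e-22). Ta.27765.6.S1_x_at was higher in young inflorescence by 3.51 ± 0.16 in TTR13 and 3.68 ± 0.16 in TD. TaAffx.82219.1.S1_at was lower, at -3.41 ± 0.10 in TTR13 and -3.80 ± 0.10 in TD, and Ta.7995.1.A1_at was higher by 3.34 ± 0.14 in TTR13 and 2.34 ± 0.14 in TD. In TD the widest difference was that of Ta.9201.3.S1_at, 4.41 ± 0.24 higher in young inflorescence (limma adjusted p = 1.76e-19), against 3.10 ± 0.24 in TTR13. The other large differences in TD were -3.48 ± 0.22 for Ta.23833.2.S1_x_at, -3.41 ± 0.15 for Ta.23833.2.S1_at and 3.35 ± 0.20 for Ta.27765.3.S1_at.

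The groups of 3 thus went apart between tissues in the natural tetraploids. All 3 members numbered Ta.27765 were higher in young inflorescence in TTR13 and TD, by 2.45 to 3.68. Of the members numbered Ta.23833, Ta.23833.2.S1_at and Ta.23833.2.S1_x_at were lower there, at -2.50 and -2.66 in TTR13, and Ta.23833.1.S1_at was higher, by 2.75 in TTR13 and 2.81 in TD. The same direction was seen without a test in Ae. longissima, where Ta.27765.3.S1_at had 13.18, 13.03 and 12.82 in young inflorescence and 10.28, 10.11 and 10.05 in leaf, and Ta.23833.2.S1_at had 10.54, 10.74 and 10.80 in young inflorescence and 12.80, 12.72 and 12.78 in leaf. As a description over the members, the median of young inflorescence minus leaf was 1.36 in S5, 1.14 in S6, 1.47 in S7, 1.08 in S8, 0.81 in Mix, 0.97 in Ae. longissima and 0.02 in T. urartu.

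Neighbours in name were examined next. A further 157 probe sets shared a number with a member without being members, and 112 of them bore the single number TaAffx.128418. The AT2 mean of 4 generations was tested against Mix in those that were analysed, 88 in leaf and 90 in young inflorescence. Of these, 3 (TaAffx.8084.4.S1_at, Ta.11872.1.S1_x_at and TaAffx.128418.36.S1_at) met the parental difference and were left out of the members for their score on this same contrast, so for them it is a description. In leaf 8 were higher and 13 lower in AT2, 9.09% and 14.8% of them, against 16.2% higher and 8.56% lower among all analysed probe sets (24.7% called). In young inflorescence 12 were higher and 17 lower, 13.3% and 18.9%, against 16.4% higher and 11.7% lower (28.1% called). Without the 3 scored by the rule, 8 were higher and 12 lower of 85 in leaf, and 9 higher and 17 lower of 87 in young inflorescence. Without TaAffx.128418, 6 were higher and 4 lower of 36 in leaf (16.7% and 11.1%), and 5 higher and 11 lower of 38 in young inflorescence (13.2% and 28.9%). In leaf the share called was 23.9%, near the 24.7% of the array. Without TaAffx.128418 the leaf share lower in AT2 was 11.1%, against 8.56%, so the leaf counts do not set the neighbours apart. In young inflorescence the share lower was above the 11.7% of the array with and without that number. Whether the neighbours differ from other probe sets was not tested. The neighbours may share probes or target sequence with members, so they are no independent repeat of them. Whether those numbered TaAffx.128418 resemble each other in sequence was not checked, and their patterns differed. In AT2, TaAffx.128418.50.S1_at ranged from 2.23 to 2.99 in leaf and from 9.82 to 10.44 in young inflorescence. TaAffx.128418.27.S1_at ranged from 12.34 to 12.92 and from 8.04 to 9.55, and TaAffx.128418.105.S1_at is paired with petC.

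The 8 members with the highest scores carried 7 numbers, of which 4 had such neighbours, 11 probe sets in all. Ta.6835.3.S1_x_at repeated the order of Ta.6835.1.S1_at at a lower level. In young inflorescence it ranged from 2.09 to 2.64 over the 12 AT2 arrays, against 5.75, 5.07 and 4.97 in Mix, 5.81, 6.10 and 5.30 in Ae. longissima, 2.37, 2.58 and 2.85 in T. urartu, 7.23, 7.50 and 7.02 in TTR13 and 4.15, 3.98 and 3.71 in TD. The AT2 mean minus Mix was -2.89 ± 0.15 (limma adjusted p = 4.83e-12). Its AT2 arrays lay below the array medians, so the size of that difference depends on the background. In leaf it did not reach the level set for analysis, with 2.26 to 2.90 in AT2 against 4.59, 4.36 and 4.52 in Mix.

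Ta.3830.3.S1_x_at, a neighbour of Ta.3830.1.S1_a_at, ranged from 5.90 to 6.63 in AT2, against 7.28, 7.26 and 7.48 in Mix in leaf, a difference of -1.04 ± 0.12 (limma adjusted p = 7.57e-06). In young inflorescence AT2 ranged from 5.82 to 6.40, against 7.93, 6.65 and 6.43 in Mix, a difference of -0.96 ± 0.22 (adjusted p = 0.0128), and without Mix replicate 1 the difference was -0.49 (adjusted p = 0.565). Of the other neighbours of Ta.3830.1.S1_a_at, Ta.3830.2.S1_at ranged in AT2 from 1.86 to 2.60 in leaf and from 2.11 to 2.57 in young inflorescence. Ta.3830.2.S1_x_at ranged from 2.51 to 2.90 and from 2.56 to 3.05, and Ta.3830.3.S1_at from 4.08 to 5.13 and from 3.94 to 4.39. These are not set against Mix here. The 4 neighbours of Ta.27765 and the analysed neighbour of Ta.23833 did not have the low AT2 level of the members. Ta.27765.4.S1_x_at, for example, had AT2 generation means from 9.36 to 10.03 in leaf, against 9.63 in Mix, and its 12 AT2 arrays of young inflorescence ranged from 11.76 to 12.23, against a mean of 12.45 in Mix (difference -0.52 ± 0.08, adjusted p = 0.000222).

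Over both tissues 12 neighbours were called in each tissue, 4 of them lower in AT2 in both tissues, none higher in both, and 8 with opposite signs, among them TaAffx.8084.4.S1_at, which the rule had scored. Besides Ta.3830.3.S1_x_at the 4 were TaAffx.128418.104.A1_s_at (-1.23 in leaf and -0.86 in young inflorescence), TaAffx.128418.92.A1_x_at (-1.34 and -0.61) and TaAffx.128418.24.S1_at (-0.64 and -0.72). In these 3 the AT2 generation means lay below both parents in both tissues, as in TaAffx.128418.104.A1_s_at with generation means of 10.74 to 11.34 in leaf, against 12.20 in Mix, 12.12 in Ae. longissima and 11.81 in T. urartu. The widest of the 8 with opposite signs was Ta.9201.2.S1_x_at, 0.74 in leaf and -1.27 in young inflorescence, and its leaf call was lost without Mix replicate 3 (0.64, limma adjusted p = 0.0519).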

How the data were processed

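Per the labels and the study's methods, the deposited values are log2 expression levels that the authors obtained by RMA and tested with limma. The submitters' processing notes also name MAS5, without versions. No further normalization was applied to the 54 arrays, whose number limits precision. Members and lists were chosen with earlier results of these data known. In place of detection calls, a filter kept for each tissue the probe sets that exceeded the 65th percentile of the array on every array of some genotype.

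Linear models were fitted with limma 3.58.1 in R 4.3.3 and moderated by eBayes, with a Benjamini-Yekutieli adjusted p under 0.05 over all analysed probe sets as the threshold. Contrasts were TTR13 against TD and the AT2 mean against Mix over the 27 arrays of a tissue, and the tissue and interaction tests over 54. Tables were handled in Python 3.11.15 with pandas 2.3.3, and the fit was tested on simulated data. Named probe sets were the 10 highest scores, those called between TTR13 and TD (at most 6 each way per tissue), the 6 widest called tissue differences within TTR13 and within TD, members sharing a number, neighbours called in both tissues and those at the limit of 50. Alternatives were other adjustments, filters, scalings, fits, a minimum fold, a replicate block and leaving out each array.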

Additional observations from a re-analysis of the deposited data

Results flagged for a closer look

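In 10 members the difference between TTR13 and TD depended on the tissue by the interaction test (limma, Benjamini-Yekutieli adjusted p under 0.05). The value is TTR13 minus TD in young inflorescence minus the same difference in leaf. It was positive in Ta.8813.1.A1_at (2.36), Ta.11469.1.S1_s_at (2.20), Ta.9531.1.A1_at (1.46), Ta.7995.1.A1_at (1.00), Ta.11872.1.S1_at (0.96), Ta.23833.2.S1_at (0.91) and Ta.6835.1.S1_at (0.79). It was negative in TaAffx.59110.1.S1_at (-6.19), TaAffx.111458.1.S1_at (-2.76) and Ta.9201.3.S1_at (-1.31). All 10 were also called between TTR13 and TD in at least 1 tissue.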

How the results depend on the processing

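The counts of members called between TTR13 and TD stayed within 1.5 times under all 9 other settings, and without an array 9 to 11 were called (both tissues alike). The tissue counts did likewise, with 35 to 37 in TTR13 and 36 to 37 in TD. The interaction count of 10 became 20 with Benjamini-Hochberg adjustment and 17 in a fit of only the groups compared, and 9 to 11 without an array. Neighbours called against Mix, 21 in leaf and 29 in young inflorescence, became 39 and 45 with Benjamini-Hochberg adjustment and 12 and 15 with a minimum fold change of 1.5, and 14 to 23 and 22 to 30 without an array. Their split of 8 higher and 13 lower in leaf was 7 and 18 with quantile normalization. The causes were not tested.

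Same-numbered arrays of TTR13 and TD did not deviate together (correlations -0.04 to 0.06), so the numbers were not used to pair these accessions. Over all genotype pairs the correlations ran from -0.264 to 0.256 in leaf (median 0.0103) and from -0.24 to 0.234 in young inflorescence (median 0.000471). Pairing between the tissues of a genotype was not examined. With a replicate block the counts were 11 and 11 for TTR13 against TD, 38 and 37 for the tissues, 10 for the interaction, and 20 and 29 for the neighbours.

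Of the 50 members 18 remained with a parental difference of at least 2, 28 with at least 4, 29 with a log2 mid-parent value in place of Mix, 33 among probe sets without a suffix of shared probes, and 45 to 50 without an array. Of the first 8 members, 7 to 8 stayed among the 8 highest scores without an array, a comparison added after seeing the data. Members below the array median in all AT2 generations numbered 4 in leaf and 2 in young inflorescence, and 7 in young inflorescence at the 65th percentile.

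Leaving out the 3 neighbours scored by the member rule, a choice made after seeing the data, gave 20 called in leaf and 26 in young inflorescence. Among the neighbours, TaAffx.33515.1.A1_at lost its leaf call in a fit of only the groups compared (adjusted p = 0.053) and Ta.7995.1.A1_s_at without Mix replicate 2 or 3 (0.211 and 0.185).

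Single test results were followed for 80 calls, the widest of each comparison, and 34 of 1474 other settings lost the call and 0 changed sign. The narrower calls of the tissue and neighbour comparisons were not followed, so these counts do not describe them. Levels under the array medians carry the least information.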
